A study of Mus musculus with 15 samples.

Results

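Mammospheres of mouse mammary tumour cells treated with DAPT were compared with mammospheres treated with U0126. DAPT inhibits γ-secretase, the protease that releases the active intracellular part of Notch receptors, and U0126 blocks MEK1, which activates the kinase ERK. The comparison used the 6 arrays whose samples were labelled with these treatments, 3 under DAPT and 3 under U0126, of 15 arrays in all. The 3 vehicle arrays are given beside them as a level, and the other 6 arrays were treated with an inhibitor of FAK or of Src. All 15 arrays entered the estimate of the spread and the choice of the genes and probe sets tested. The cells of every group came from primary mammary tumours of FVB/N mice of genotype MMTV-PyMT, which carry the polyoma middle T oncogene under a mammary tumour virus promoter active mainly in mammary epithelium. They grew as floating spheres without serum, in medium with EGF, FGF and B27, for 10 days before treatment and for 2 days with it, 12 days in all. Shp2, a tyrosine phosphatase, and senescence are the subjects of the study's title. Doses, the age of the mice and the number of mice per group are not given in these sources. The labels speak of biological replicates but not of separate mice or cultures, so p-values reflect only how these samples vary.

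Notch receptors are cut on binding a ligand of the Delta or Jagged family on a neighbouring cell. The freed fragment joins the DNA-binding protein RBPJ and switches on genes of the Hes and Hey families, and in mammary epithelium the pathway is known for a part in the choice between luminal and basal fates. MEK phosphorylates ERK, which passes signals from growth factor receptors such as that of EGF to immediate early genes and to feedback inhibitors of the DUSP and Sprouty families.

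RNA levels are given as log2 of the deposited microarray signal, which on every array was scaled to a trimmed mean of 500, and differences are DAPT minus U0126 on that scale. Each gene is represented by 1 probe set, and levels of different genes are not compared. Median signals were 75.8 to 83.4 on the DAPT arrays, 72.9 to 83.3 on the U0126 arrays and 65.8 to 78.4 on the vehicle arrays. A gene below the median of its array on all 3 arrays of a group is called dim there, and its difference is then given as a lower bound. Some genes named below lay above the median on only part of a group's arrays, so their differences include dim signals: Adm, Csf3, Gpx2, Heyl, Ifit1 and Sox11 on 1 of the 3 DAPT arrays and Nrarp and Wap on 2, and Egr3, Id4 and Sox5 on 1 of the 3 U0126 arrays and Heyl, Spry4 and Wap on 2. The 3′/5′ actin ratio, a control that is higher where RNA is degraded, was 1.35 ± 0.069 under DAPT, 1.28 ± 0.0664 under U0126 and 1.42 ± 0.0606 with vehicle (SD, n = 3 each), and the DAPT and U0126 arrays overlapped in it. All 7 markers of mammary epithelium lay above the median on every array. Of the 10 fibroblast markers, 9 lay below the median on all 6 DAPT and U0126 arrays, as did all 9 measured lymphocyte markers, 7 of 10 endothelial markers, 6 of 10 macrophage markers and 6 of 7 measured adipocyte markers, and no marker was at 0. Of the macrophage markers, only Cd14, a receptor for bacterial lipopolysaccharide, was above the median on all 3 U0126 arrays. Both Cd14 and Csf1r were above it on all 3 DAPT arrays. The summed signal of all 10 macrophage markers was 9038 to 9254.4 under DAPT and 2282.2 to 2507.5 under U0126, most of it from Cd14. Without Cd14 the sum was 349.7 to 400.7 under DAPT and 373 to 423.9 under U0126.

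The DAPT and U0126 spheres differed in a large share of the genes measured. Of 11412 genes tested with limma, 5103 (44.7%) differed at an adjusted p below 0.05, of which 2643 (23.2% of those tested) were higher under DAPT and 2460 (21.6%) were lower. At least 2-fold differences were found for 638 genes (5.59%), with 296 (2.59%) higher under DAPT and 342 (3%) lower. The median difference over all genes tested was 0.012 and the median standard error 0.0976. The median absolute log2 difference between a DAPT and a U0126 array was 0.24 to 0.296, above the 0.106 to 0.122 between DAPT arrays and the 0.126 to 0.133 between U0126 arrays. For 53.3% of the genes the arrays of the 2 groups did not overlap. With each array centred on its median, 1600 genes were called higher and 2196 lower.

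**Figure D1:**
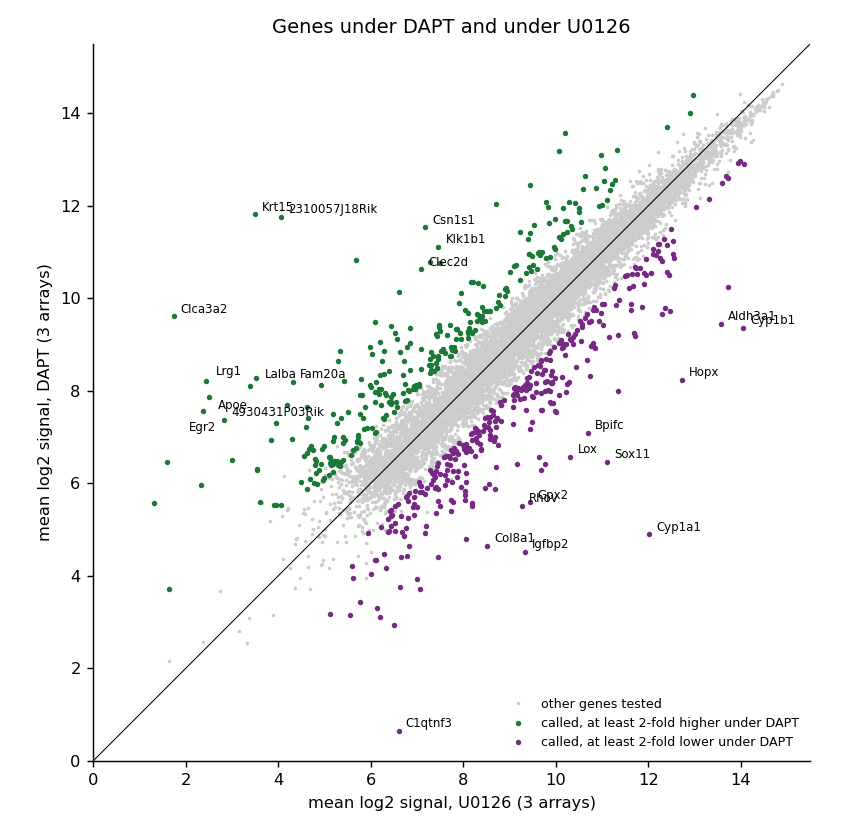
Mean log2 signal of each gene tested, under DAPT on the vertical axis and under U0126 on the horizontal axis (3 arrays each), with the line of equal signal. Coloured points are the 296 genes called and at least 2-fold higher under DAPT (green, above the line) and the 342 called and at least 2-fold lower (purple, below it); Krt15 lies farthest above the line and Cyp1a1 farthest below it among the genes labelled, which are the 12 largest differences in each direction by the naming rule.

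The 12 largest differences in each direction included genes of keratins, milk proteins, cytochrome P450 enzymes and collagen. Krt15, a keratin of basal and progenitor cells in stratified epithelia, had signals of 11.87, 11.79 and 11.78 under DAPT, 5.13, 2.60 and 2.75 under U0126 and 7.87, 7.83 and 7.82 with vehicle. Its DAPT arrays were the highest and its U0126 arrays all dim, with vehicle between them and no overlap, so the level under DAPT was at least 46.6-fold higher (adjusted p = 2.20e-10). Cyp1a1, a cytochrome P450 that oxidises aromatic hydrocarbons, had signals of 5.91, 4.41 and 4.35 under DAPT, 12.09, 11.95 and 12.03 under U0126 and 5.43, 3.40 and 4.74 with vehicle. It was bright under U0126 and dim under both other treatments, and was at least 51.9-fold lower under DAPT than under U0126 (adjusted p = 1.91e-09).

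Among the other large differences on the higher side, Clca3a2, a member of the calcium-activated chloride channel regulator family, was at least 10.1-fold higher under DAPT and dim under U0126 (adjusted p = 1.88e-09). The bound was at least 44.9-fold for 2310057J18Rik, which the annotation gives no further name, and at least 2.15-fold for 4930431P03Rik. Lrg1, a secreted leucine-rich glycoprotein, was at least 3.85-fold higher, Apoe, a lipid carrier, at least 3.03-fold, and Fam20a, which belongs to a family of secretory-pathway kinases, at least 3.79-fold. Clec2d, a lectin-like membrane protein, averaged 10.63 ± 0.15 under DAPT and 7.08 ± 0.12 under U0126 (SD, n = 3 each; log2 difference 3.55, SE 0.105, adjusted p = 1.31e-13). Klk1b1, a kallikrein protease, averaged 11.11 ± 0.062 under DAPT and 7.46 ± 0.21 under U0126 (log2 difference 3.65, SE 0.113, adjusted p = 2.47e-13), although its near-identical paralogs may share that probe set. On the lower side, Sox11, a transcription factor of embryonic tissues, had signals of 6.08, 6.97 and 6.35 under DAPT, 11.18, 11.11 and 11.04 under U0126 and 6.42, 6.93 and 6.58 with vehicle (log2 difference −4.65, SE 0.186, adjusted p = 5.35e-12). The U0126 arrays were the highest, and DAPT and vehicle overlapped.

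Hopx, a homeodomain protein without DNA binding of its own, had signals of 8.36, 8.24 and 8.10 under DAPT, 12.76, 12.86 and 12.59 under U0126 and 8.80, 8.83 and 9.07 with vehicle (log2 difference −4.50, SE 0.125, adjusted p = 7.03e-14). Igfbp2, a carrier of insulin-like growth factors, was at least 8.00-fold lower under DAPT, where it was dim, as were Rhov (at least 7.68-fold) and the collagen Col8a1 (at least 4.59-fold). Lox, which crosslinks collagen, averaged 6.58 ± 0.02 under DAPT and 10.32 ± 0.12 under U0126 (log2 difference −3.74, SE 0.181, adjusted p = 6.55e-11), and the groups did not overlap. Gpx2, a glutathione peroxidase of epithelia, had signals of 6.68, 5.55 and 4.53 under DAPT, 9.53, 9.46 and 9.36 under U0126 and 6.59, 6.61 and 6.24 with vehicle (adjusted p = 1.48e-07), with only 1 DAPT array above its median. The difference of Bpifc was −3.59 (adjusted p = 1.85e-11). C1qtnf3, a secreted C1q-related protein, had a fitted difference of −5.96 (adjusted p = 0.00759), but its bound was only at least 1.21-fold because it lay near the median under U0126.

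Several targets of Notch were lower under DAPT than under U0126, among them Nrarp, Hes1 and Hey1. Nrarp, which is induced by Notch and feeds back on it, had signals of 6.01, 6.75 and 6.47 under DAPT, 9.72, 9.93 and 9.68 under U0126 and 9.09, 9.00 and 9.34 with vehicle. Its DAPT arrays lay below every other array (log2 difference −3.37, SE 0.199, adjusted p = 7.60e-10), and its second bright probe set differed by −2.30. Hes1, a transcriptional repressor that Notch induces, had signals of 9.31, 9.11 and 9.25 under DAPT, 10.45, 10.41 and 10.36 under U0126 and 10.37, 10.39 and 10.68 with vehicle. The U0126 arrays overlapped the vehicle arrays and the DAPT arrays lay below both (log2 difference −1.18, SE 0.0933, adjusted p = 2.78e-08). Hey1, a repressor related to Hes1, had signals of 11.06, 10.94 and 11.02 under DAPT, 11.84, 11.80 and 11.69 under U0126 and 12.22, 12.05 and 12.33 with vehicle. Here DAPT was lowest, U0126 intermediate and vehicle highest, with no overlap (log2 difference −0.77, SE 0.0647, adjusted p = 6.39e-08). Heyl, of the same family, averaged 6.33 ± 0.48 under DAPT and 6.45 ± 0.53 under U0126 and did not pass (log2 difference −0.12, SE 0.342, adjusted p = 0.811).

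Of 14 Notch targets tested, 3 were called higher under DAPT, 7 were called lower and 4 did not pass the test, so 71.4% were called against 44.7% of all genes, and the list's median difference was −0.27. Id3, an inhibitor of basic helix-loop-helix factors (−0.79, adjusted p = 4.57e-06), and the cyclin Ccnd1 (−0.64, adjusted p = 1.67e-07) were among those lower under DAPT. The called members on the other side were Snai2, a zinc-finger repressor of basal mammary cells (1.36, adjusted p = 1.20e-06), Gata3, a transcription factor of luminal cells (0.59, adjusted p = 6.10e-08), and Dtx1, a Notch-binding ubiquitin ligase (1.80). Dtx1 had a second bright probe set that differed by −0.98, and with the mean of its probe sets the adjusted p was 0.242.

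Receptors and ligands were split. Of 7 tested, 2 were called higher under DAPT, 3 were called lower and 2 did not pass the test (71.4% called against 44.7% of all genes; median difference −0.077). Notch1, a receptor, had signals of 11.37, 11.31 and 11.39 under DAPT, 12.31, 12.43 and 12.21 under U0126 and 11.39, 11.35 and 11.56 with vehicle. U0126 was the highest group, and DAPT did not overlap with it (log2 difference −0.96, SE 0.0702, adjusted p = 1.07e-08). Notch3, a receptor that is itself induced by Notch, had signals of 9.83, 9.71 and 9.80 under DAPT, against 10.48, 10.52 and 10.46 under U0126 (log2 difference −0.71, SE 0.0537, adjusted p = 1.71e-08). Notch4 was dim under DAPT and at least 2.11-fold lower there (adjusted p = 1.81e-05), but with the mean of its probe sets the adjusted p was 0.815. The ligand Dll1 went the other way, with signals of 12.55, 12.43 and 12.63 under DAPT, 11.81, 11.68 and 11.73 under U0126 and 11.76, 11.67 and 11.87 with vehicle, the DAPT arrays above both other groups (log2 difference 0.80, SE 0.0632, adjusted p = 2.92e-08). Jag2, a further ligand, was also higher (0.77, adjusted p = 8.02e-04). Jag1 had signals of 10.45, 10.42 and 10.44 under DAPT, 10.40, 10.35 and 10.40 under U0126 and 11.59, 11.69 and 11.45 with vehicle: both treated groups lay below vehicle, and their difference did not pass (log2 difference 0.047, SE 0.0642, adjusted p = 0.586).

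Among 20 modifiers of Notch and subunits of γ-secretase tested, 7 were called higher under DAPT, 2 were called lower and 11 did not pass the test, a share called (45%) near that of all genes. Aph1b, a subunit of γ-secretase, had signals of 10.46, 10.55 and 10.38 under DAPT, 11.38, 11.27 and 11.21 under U0126 and 10.03, 9.98 and 10.14 with vehicle. The U0126 arrays were the highest and the DAPT arrays lay between U0126 and vehicle (log2 difference −0.82, SE 0.0646, adjusted p = 2.78e-08). Adam10, the protease that cuts the receptor before γ-secretase does, was lower under DAPT too (−0.61, adjusted p = 1.14e-04), and the ubiquitin ligase Itch was higher (0.45, adjusted p = 4.43e-05). Numb, an adaptor that opposes Notch, was called higher (0.56, adjusted p = 9.78e-07), but with the mean of its probe sets the adjusted p was 0.0902.

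Many outputs of ERK were higher under DAPT than under U0126, among them the early growth response factors and the ERK phosphatase Dusp6. Egr1, a zinc-finger factor among the first genes that ERK induces, had signals of 13.25, 13.20 and 13.13 under DAPT, 10.16, 9.93 and 10.14 under U0126 and 13.17, 13.10 and 13.29 with vehicle. The DAPT and vehicle arrays overlapped and the U0126 arrays lay far below (log2 difference 3.12, SE 0.0902, adjusted p = 1.06e-13). Dusp6, which dephosphorylates ERK, had signals of 12.90, 12.77 and 12.79 under DAPT, 11.12, 10.93 and 11.16 under U0126 and 13.06, 13.02 and 13.13 with vehicle. All U0126 arrays lay below the rest (log2 difference 1.75, SE 0.0586, adjusted p = 5.77e-13). Etv5, an ETS transcription factor downstream of ERK, had signals of 11.24, 11.24 and 11.69 under DAPT, 10.20, 9.98 and 10.28 under U0126 and 11.92, 12.06 and 11.54 with vehicle (log2 difference 1.24, SE 0.163, adjusted p = 1.07e-05). No DAPT array of Etv5 overlapped a U0126 array. Egr3 averaged 8.65 ± 0.065 under DAPT and 6.25 ± 0.13 under U0126 (log2 difference 2.40, SE 0.132, adjusted p = 3.16e-10), and Egr2 was dim under U0126 and at least 2.43-fold higher under DAPT (adjusted p = 1.08e-05). Spry4, a feedback inhibitor of receptor signalling, was 1.44 higher (adjusted p = 2.36e-04), though with the mean of its probe sets the adjusted p was 0.42.

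Of 24 ERK outputs and feedback genes tested, 12 were called higher under DAPT, 5 were called lower and 7 did not pass the test, a share called of 70.8% against 44.7% of all genes. The median difference was 0.20, or 0.39 when Egr2 is held at its bound and Fosl1 is left out. The list did not move as one: Ier3, a stress-induced survival gene, averaged 12.90 ± 0.039 under DAPT and 14.07 ± 0.12 under U0126 (log2 difference −1.16, SE 0.0631, adjusted p = 2.60e-10). Hbegf, a ligand of the EGF receptor (−0.82, adjusted p = 2.81e-05), and Plaur, the urokinase receptor (−0.79, adjusted p = 3.63e-05), were lower under DAPT as well. Fosl1, an AP-1 subunit, was dim in both groups, at 5.32 ± 0.33 under DAPT and 5.77 ± 0.23 under U0126, and gave no fold.

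**Figure D2:**
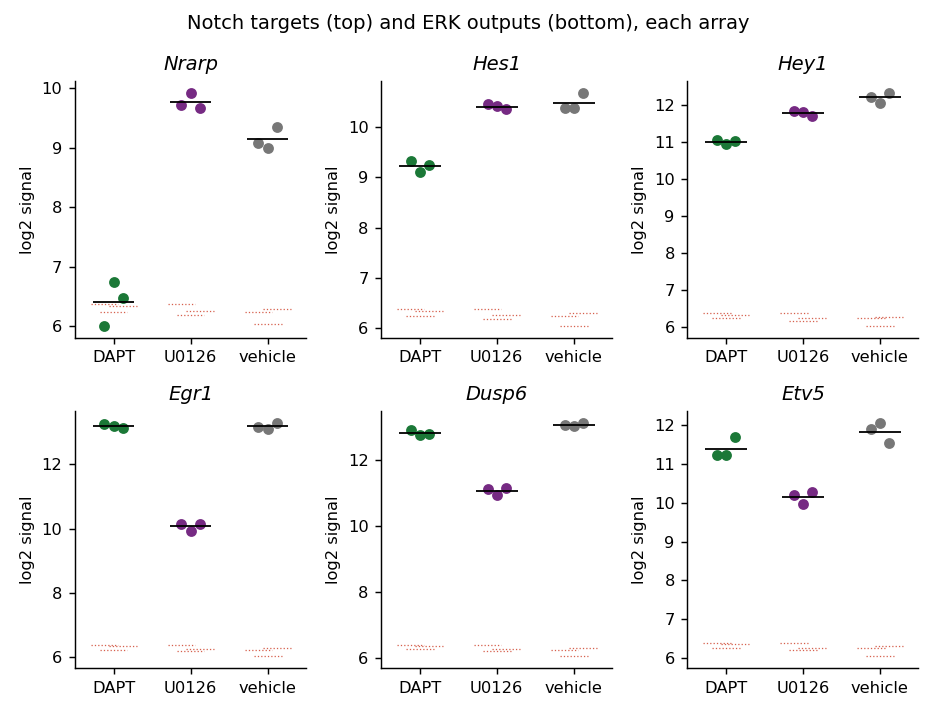
Log2 signal of 3 Notch targets (top row) and 3 ERK outputs (bottom row) on each array under DAPT, under U0126 and with vehicle; bars are group means and dotted lines the median of each array. Nrarp, Hes1 and Hey1 are lowest under DAPT, and Egr1, Dusp6 and Etv5 are lowest under U0126.

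Of 21 AP-1 and immediate early genes tested, 6 were called higher under DAPT, 9 were called lower and 6 did not pass the test (28.6% higher and 42.9% lower, against 23.2% and 21.6% of all genes; median difference 0.025). Fos, the founding AP-1 subunit, had signals of 11.52, 11.54 and 11.47 under DAPT, 10.19, 10.42 and 10.47 under U0126 and 11.66, 11.58 and 11.47 with vehicle. The U0126 arrays were below both other groups (log2 difference 1.15, SE 0.0758, adjusted p = 2.89e-09). Klf4, a Krüppel-like factor of epithelial differentiation, had signals of 8.33, 8.20 and 8.05 under DAPT, 9.86, 9.81 and 10.08 under U0126 and 9.69, 9.78 and 9.60 with vehicle. The DAPT arrays were the lowest (log2 difference −1.72, SE 0.0897, adjusted p = 1.61e-10). Ier5 (−1.02, adjusted p = 1.61e-09) and the stress factor Atf3 (−0.60, adjusted p = 0.00357) were likewise lower under DAPT, so that immediate early genes stood on both sides. Among 18 components of the MAPK pathway tested, 8 were called higher under DAPT, 4 were called lower and 6 did not pass the test (44.4% higher against 23.2% of all genes, and 22.2% lower, near the 21.6% of all genes; median difference 0.11). Map2k1, which encodes MEK1, averaged 11.38 ± 0.065 under DAPT and 11.44 ± 0.057 under U0126 and did not pass (log2 difference −0.059, SE 0.0593, adjusted p = 0.454). Gab1, a docking protein for Shp2 and PI3 kinase, had signals of 10.75, 10.78 and 10.70 under DAPT, 11.71, 11.76 and 11.62 under U0126 and 10.77, 10.86 and 10.80 with vehicle, with U0126 above both other groups (log2 difference −0.95, SE 0.0596, adjusted p = 1.59e-09), and its relative Gab2 was lower under DAPT too (−0.74, adjusted p = 3.97e-06). The small GTPase Nras (0.41, adjusted p = 4.09e-04) and Mknk2, a kinase that ERK activates (0.38, adjusted p = 2.74e-06), were higher under DAPT.

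Enzyme genes known to answer the aryl hydrocarbon receptor (AHR) were lower under DAPT than under U0126. AHR is a ligand-activated transcription factor that pairs with ARNT, binds a core DNA motif of the letters GCGTG and induces enzymes that process foreign chemicals. The 250 bases before the annotated starts of Cyp1a1 (chr9:57697363-57697612, plus strand) and Cyp1b1 (chr17:79715062-79715311, minus strand) are shown because both genes carry the difference, with each GCGTG, or CACGC on the other strand, in capitals (RefSeq, GRCm38.p6, written 5′ to 3′ in the direction of the gene).
Cyp1a1: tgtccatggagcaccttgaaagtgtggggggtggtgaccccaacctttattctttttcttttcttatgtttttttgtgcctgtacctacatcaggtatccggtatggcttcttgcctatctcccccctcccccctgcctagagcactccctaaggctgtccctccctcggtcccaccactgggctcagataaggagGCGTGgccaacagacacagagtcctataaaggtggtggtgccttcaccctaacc
Cyp1b1: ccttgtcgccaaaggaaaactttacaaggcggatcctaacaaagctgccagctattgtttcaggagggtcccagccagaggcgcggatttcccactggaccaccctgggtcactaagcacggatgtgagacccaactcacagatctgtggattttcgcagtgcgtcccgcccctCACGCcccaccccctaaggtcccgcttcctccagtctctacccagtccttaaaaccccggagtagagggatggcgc
Of 6 tested members of the AHR list with a promoter in the reference table, 4 held GCGTG on either strand between 250 bases before and 50 after the start, against 32.5% of all 27025 promoters and 52.8% of those of tested genes. The longer form TNGCGTG was in 0 of 6, against 5.12% of all promoters.

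Beside Cyp1a1, given above, Cyp1b1, a related P450, had signals of 9.44, 9.38 and 9.25 under DAPT, 14.05, 14.17 and 13.92 under U0126 and 8.34, 8.43 and 8.48 with vehicle. The U0126 arrays stood far above the other groups (log2 difference −4.69, SE 0.067, adjusted p = 1.07e-17), and a second bright probe set differed by −5.43. Aldh3a1, an aldehyde dehydrogenase, had signals of 9.48, 9.41 and 9.46 under DAPT, 13.48, 13.73 and 13.50 under U0126 and 7.43, 7.36 and 7.47 with vehicle. U0126 was again highest, and DAPT lay above vehicle (log2 difference −4.12, SE 0.0758, adjusted p = 3.33e-16). Nqo1, a quinone reductase that both AHR and NRF2 induce, had signals of 9.77, 9.66 and 9.78 under DAPT, 12.44, 12.58 and 12.39 under U0126 and 9.81, 9.67 and 9.95 with vehicle. The DAPT and vehicle arrays overlapped below those of U0126 (log2 difference −2.74, SE 0.0872, adjusted p = 2.98e-13). Of 8 members tested, 1 was called higher under DAPT, 5 were called lower and 2 did not pass the test (62.5% lower against 21.6% of all genes; median difference −2.31). The fifth lower member was Tiparp, an ADP-ribosyltransferase that represses AHR (−1.89, adjusted p = 6.03e-13), which is named after its values were seen. The receptor gene Ahr itself was 0.47 higher under DAPT (adjusted p = 3.37e-05), but with the mean of its probe sets the adjusted p was 0.564.

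Genes of the oxidative stress factor NRF2 were lower under DAPT as a group. Of 17 tested, 1 was called higher under DAPT, 12 were called lower and 4 did not pass the test, so 70.6% were lower against 21.6% of all genes, with a median difference of −0.61. Gsta4, a glutathione transferase for lipid aldehydes, had signals of 9.70, 9.63 and 9.64 under DAPT, 12.23, 12.41 and 12.28 under U0126 and 9.21, 9.26 and 9.30 with vehicle. Its DAPT arrays lay near vehicle and well below U0126 (log2 difference −2.65, SE 0.0641, adjusted p = 9.36e-15). Srxn1, which repairs oxidised peroxiredoxins (−1.03, adjusted p = 1.76e-07), and Gstp1, a glutathione transferase whose paralog Gstp2 may share the probe set (−1.02, adjusted p = 6.55e-11), were lower too. The other bright probe sets of Srxn1 differed by −1.48 to 0.69. Fth1, the ferritin heavy chain, was the 1 member called higher (0.17, adjusted p = 0.0202); its adjusted p was 0.434 with median centring, 0.0577 and 0.0598 without DAPT replicates 1 and 2, and 0.0887 without U0126 replicate 1.

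Milk protein genes were higher under DAPT, and none of those tested was lower. Milk proteins are made by alveolar cells of the luminal lineage, in which prolactin acts through JAK2 and STAT5, whose binding motif has the letters TTCNNNGAA. The promoters of the caseins Csn1s1 (chr5:87665958-87666207, plus strand) and Csn2 (chr5:87699426-87699675, minus strand) are shown because both hold that motif, in capitals, within 250 bases before the start and both differed (RefSeq, GRCm38.p6).
Csn1s1: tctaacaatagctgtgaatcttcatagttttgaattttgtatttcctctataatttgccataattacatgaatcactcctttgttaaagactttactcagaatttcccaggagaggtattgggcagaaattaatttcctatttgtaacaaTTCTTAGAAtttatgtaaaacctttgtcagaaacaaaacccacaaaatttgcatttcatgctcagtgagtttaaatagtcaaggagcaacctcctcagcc
Csn2: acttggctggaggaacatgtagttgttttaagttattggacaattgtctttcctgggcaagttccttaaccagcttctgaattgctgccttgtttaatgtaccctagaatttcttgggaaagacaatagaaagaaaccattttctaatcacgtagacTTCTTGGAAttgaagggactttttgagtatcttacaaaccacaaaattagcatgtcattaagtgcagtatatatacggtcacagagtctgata
The motif is the same on both strands. It was in 3 of 11 promoters of tested milk genes that the table lists, those of Csn1s1, Csn2 and Csn1s2a, against 8.47% of all promoters.

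Csn1s1, a major casein, had signals of 11.62, 11.40 and 11.60 under DAPT, 7.47, 6.98 and 7.07 under U0126 and 12.39, 12.40 and 12.49 with vehicle. The U0126 arrays lay far below both other groups, and vehicle was above DAPT (log2 difference 4.36, SE 0.0935, adjusted p = 2.02e-15). Csn2, the β-casein gene, had signals of 7.83, 7.26 and 7.87 under DAPT, 4.30, 4.96 and 4.57 under U0126 and 6.54, 6.51 and 6.37 with vehicle. It was dim under U0126 and at least 2.61-fold higher under DAPT (adjusted p = 9.78e-10), where it also lay above vehicle. Csn3, the casein that stabilises milk micelles, averaged 14.40 ± 0.1 under DAPT and 12.97 ± 0.092 under U0126 (log2 difference 1.43, SE 0.0904, adjusted p = 1.75e-09), and a second bright probe set differed by 4.11. Lalba, the α-lactalbumin that directs lactose synthesis, was dim under U0126 and at least 4.02-fold higher under DAPT (adjusted p = 2.94e-05). Ltf, the iron-binding lactoferrin, had signals of 13.70, 13.56 and 13.49 under DAPT, 10.16, 10.38 and 10.08 under U0126 and 12.09, 12.17 and 12.19 with vehicle. DAPT was the highest group (log2 difference 3.38, SE 0.0823, adjusted p = 9.36e-15). Lao1, an amino acid oxidase of milk, was at least 6.02-fold higher (adjusted p = 6.14e-09). Wap, the whey acidic protein, averaged 6.54 ± 0.26 under DAPT and 6.05 ± 1 under U0126 and did not pass (log2 difference 0.49, SE 0.371, adjusted p = 0.311). Its direction depended on single arrays. The difference of Wap was 0.95 (adjusted p = 0.0351) without U0126 replicate 1 and −0.081 (adjusted p = 0.844) without U0126 replicate 3.

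Of 16 milk and alveolar genes tested, 13 were called higher under DAPT, 0 were called lower and 3 did not pass the test, so 81.2% were higher against 23.2% of all genes. The median difference was 2.12, or 1.15 with the 5 members dim under U0126 held at their bound. Of 11 regulators of the alveolar fate tested, 9 were called higher under DAPT, 1 was called lower and 1 did not pass the test (81.8% higher against 23.2% of all genes; median 0.57). Elf5, an ETS factor of alveolar progenitors, had signals of 12.60, 12.57 and 12.45 under DAPT, 11.69, 11.74 and 11.40 under U0126 and 12.26, 12.20 and 12.32 with vehicle. The U0126 arrays were the lowest (log2 difference 0.93, SE 0.0914, adjusted p = 4.08e-07). Ehf, a related epithelial factor, differed by 0.95 (adjusted p = 4.68e-09), Stat5a by 0.86 (adjusted p = 3.70e-07) and Jak2 by 0.61 (adjusted p = 5.01e-05). The 1 lower member was the cytokine signal inhibitor Socs2 (−0.18, adjusted p = 0.0426). With 1 array left out it stayed called only without U0126 replicate 1 (adjusted p = 0.041). Its adjusted p was 0.0858, 0.051 and 0.125 without DAPT replicates 1, 2 and 3, and 0.0614 and 0.164 without U0126 replicates 2 and 3.

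**Figure D3:**
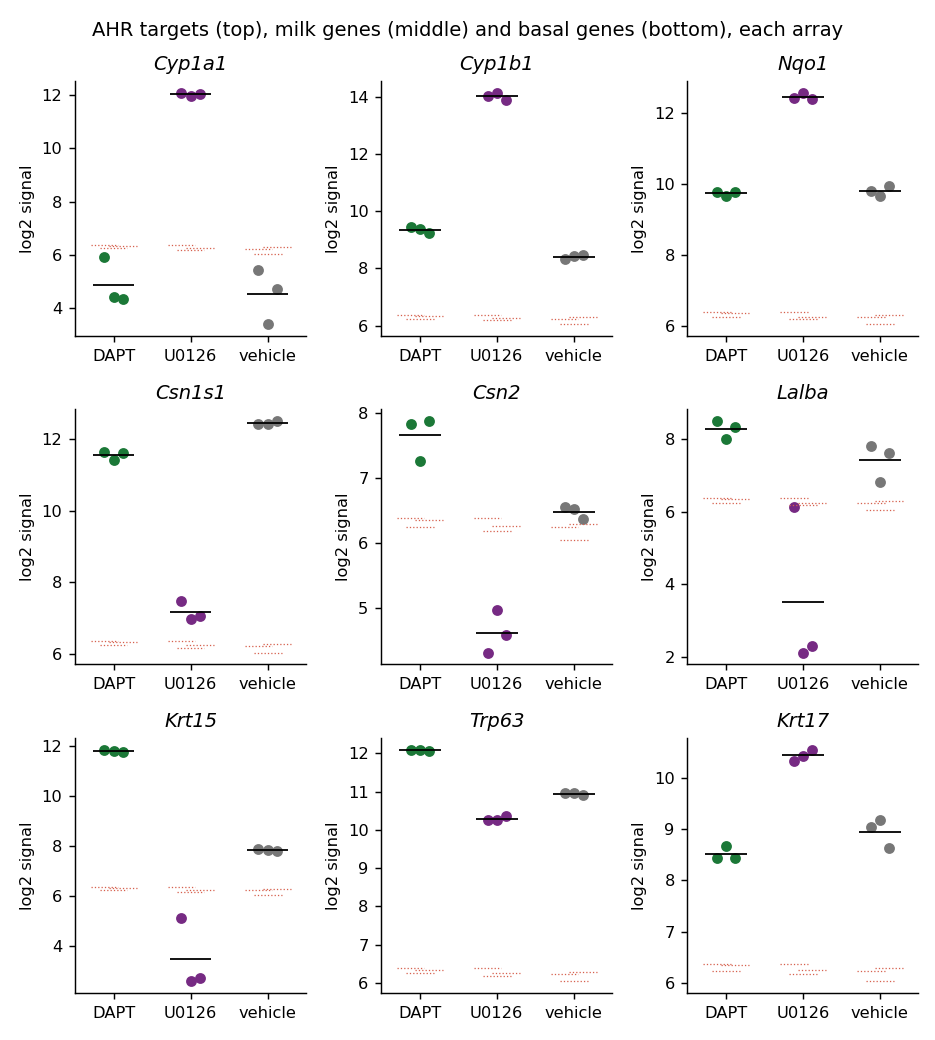
Log2 signal on each array under DAPT, under U0126 and with vehicle for AHR targets (top), milk protein genes (middle) and basal keratin and regulator genes (bottom); bars are group means and dotted lines array medians. Cyp1a1, Cyp1b1, Nqo1 and Krt17 are highest under U0126, whereas Csn1s1, Csn2, Lalba, Krt15 and Trp63 are lowest there.

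Basal markers were mostly higher under DAPT, with keratins on both sides. Of 17 basal and myoepithelial markers tested, 10 were called higher under DAPT, 4 were called lower and 3 did not pass the test (82.4% called against 44.7% of all genes; median difference 0.58). Trp63, the p53-family factor that maintains basal epithelium, had signals of 12.10, 12.08 and 12.07 under DAPT, 10.25, 10.26 and 10.36 under U0126 and 10.97, 10.96 and 10.92 with vehicle. DAPT lay above vehicle and U0126 below it without overlap (log2 difference 1.79, SE 0.0673, adjusted p = 2.24e-12), and other bright probe sets differed by 1.40 to 2.30. Krt5, a keratin of basal cells, had signals of 10.27, 10.34 and 10.55 under DAPT, 9.28, 9.17 and 9.22 under U0126 and 9.52, 9.46 and 9.35 with vehicle. The DAPT arrays were the highest (log2 difference 1.17, SE 0.0851, adjusted p = 1.02e-08). Lgals7, a galectin of stratified epithelia, averaged 12.65 ± 0.18 under DAPT and 10.63 ± 0.039 under U0126 (log2 difference 2.01, SE 0.0788, adjusted p = 4.14e-12). Krt14, the partner of Krt5 in filaments, went the other way, with signals of 13.21, 13.22 and 13.15 under DAPT, against 13.94, 13.90 and 13.74 under U0126 (log2 difference −0.67, SE 0.068, adjusted p = 6.44e-07).

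Krt17, a keratin induced in activated epithelium, averaged 8.52 ± 0.14 under DAPT and 10.43 ± 0.11 under U0126 (log2 difference −1.91, SE 0.141, adjusted p = 1.25e-08), and Krt6a differed by −1.94 (adjusted p = 2.80e-13), with a near-identical paralog, Krt6b, that may share its signal. Vim, the intermediate filament of mesenchymal and some basal cells, was also lower under DAPT (−0.99, adjusted p = 1.37e-09). Of 16 luminal markers tested, 4 were called higher under DAPT, 8 were called lower and 4 did not pass the test (50% lower against 21.6% of all genes, and 25% higher, near the 23.2% of all genes; median difference −0.28). With quantile normalization, 6 of these luminal markers were called higher and 7 lower, and the median was −0.075. Aldh1a3, a retinaldehyde dehydrogenase of luminal progenitors, had signals of 5.43, 6.14 and 6.06 under DAPT, 8.34, 8.97 and 8.75 under U0126 and 7.95, 8.40 and 7.98 with vehicle. It was dim under DAPT and at least 5.14-fold lower there (adjusted p = 9.66e-09). Simple-epithelial keratins were lower under DAPT as well: Krt7 differed by −1.12 (adjusted p = 2.85e-09), Krt19 by −0.98 (adjusted p = 2.37e-09) and Krt8 by −0.40 (adjusted p = 6.04e-04). Cldn4, a tight junction protein, followed (−1.06, adjusted p = 2.38e-07). Luminal progenitor genes Elf5, given above, and Kit, a receptor tyrosine kinase (0.63, adjusted p = 4.44e-08), stood on the higher side.

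The lists of matrix genes, of proteases and of targets of YAP and SRF each held more members called lower than higher under DAPT, and integrins stood on both sides. Fn1, fibronectin, had signals of 9.05, 9.48 and 9.04 under DAPT, 11.69, 11.86 and 11.56 under U0126 and 9.14, 9.22 and 9.18 with vehicle. DAPT and vehicle overlapped and U0126 was higher (log2 difference −2.51, SE 0.138, adjusted p = 2.97e-10). Tnc, the matrix protein tenascin C, averaged 7.91 ± 0.19 under DAPT and 10.07 ± 0.079 under U0126 (log2 difference −2.16, SE 0.123, adjusted p = 4.55e-10), and the basement membrane collagen Col4a1 differed by −1.20 (adjusted p = 3.34e-09). Ogn, a small leucine-rich proteoglycan, went the other way and averaged 12.53 ± 0.054 under DAPT and 11.05 ± 0.1 under U0126 (log2 difference 1.48, SE 0.07, adjusted p = 4.94e-11). Of 16 matrix genes tested, 4 were called higher under DAPT, 7 were called lower and 5 did not pass the test (43.8% lower against 21.6% of all genes, and 25% higher, near the 23.2% of all genes; median −0.21). Of 7 tested genes of the epithelial-mesenchymal transition, 2 were called higher under DAPT, 3 were called lower and 2 did not pass the test (28.6% and 42.9%, against 23.2% and 21.6% of all genes; median 0.12). Fn1, Vim and the cadherin Cdh2 (−1.01, adjusted p = 1.68e-06) were lower while Snai2 was higher.

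Of 17 proteases and inhibitors tested, 3 were called higher under DAPT, 7 were called lower and 7 did not pass the test (17.6% higher and 41.2% lower, against 23.2% and 21.6% of all genes; median −0.16). The list holds 2 members dim in both groups, and with the filter on the 6 DAPT and U0126 arrays alone, 13 were tested, 3 called higher and 6 lower. Adam12, a membrane metalloprotease, had signals of 8.23, 8.47 and 8.26 under DAPT, 10.81, 10.71 and 10.67 under U0126 and 9.42, 9.23 and 9.42 with vehicle. U0126 was highest and DAPT lowest (log2 difference −2.41, SE 0.0962, adjusted p = 5.35e-12). Adamts1, a secreted metalloprotease, was lower too (−1.15, adjusted p = 2.53e-07). Klk6, a kallikrein protease, was dim under U0126 and at least 6.42-fold higher under DAPT (adjusted p = 1.84e-12), and Pappa, which cuts IGF-binding proteins, was higher (1.28, adjusted p = 6.66e-06). Of 15 targets of YAP and SRF, factors that respond to cell shape and tension, 2 were called higher under DAPT, 9 were called lower and 4 did not pass the test, so 60% were lower against 21.6% of all genes (median −0.46). Ccn1, a matricellular protein, had signals of 10.12, 10.39 and 10.29 under DAPT, 11.60, 11.77 and 11.64 under U0126 and 9.95, 10.05 and 9.75 with vehicle. All of its U0126 arrays lay above the rest (log2 difference −1.40, SE 0.0808, adjusted p = 5.79e-10). Axl, a receptor tyrosine kinase (−1.59, adjusted p = 6.10e-09), Amotl2, an angiomotin (−1.45, adjusted p = 1.42e-11), and Ccn2 (−0.85, adjusted p = 9.66e-09) were lower under DAPT, against Nuak2, a kinase, which was higher (1.84, adjusted p = 6.55e-11). Of 17 integrin and focal adhesion genes, 8 were called higher under DAPT, 4 were called lower and 5 did not pass the test (47.1% higher against 23.2% of all genes, and 23.5% lower, near the 21.6% of all genes; median 0.21). The hemidesmosome integrin pair Itga6 (0.58, adjusted p = 5.56e-07) and Itgb4 (0.70, adjusted p = 3.23e-05) was higher under DAPT, as was Itgb8, which binds latent TGF-β (1.18, adjusted p = 3.67e-08). The integrins Itgb5 (−0.75, adjusted p = 7.24e-06) and Itgb6 (−0.65, adjusted p = 9.12e-04) were lower, and the other called integrin, Itga2 (adjusted p = 0.0209), was dim in both groups and gave no fold.

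**Figure D4:**
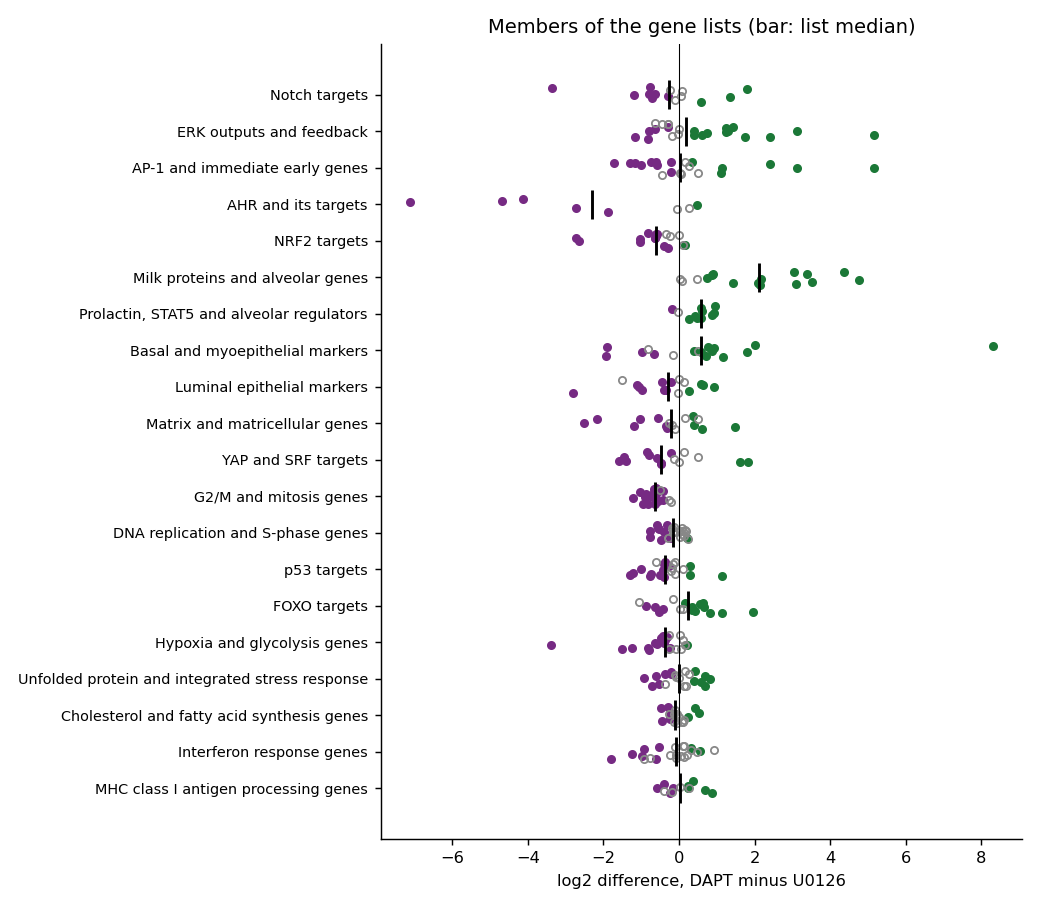
Log2 difference, DAPT minus U0126, of every tested member of 20 gene lists (rows); filled points passed the test (green higher, purple lower under DAPT), open circles did not, and the bar is the list median. G2/M genes lie to the left of 0 and milk genes to the right, while most other lists hold members on both sides.

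Genes of mitosis were lower under DAPT than under U0126, with differences between −1.23 and −0.20. Of 24 G2/M and mitosis genes tested, 0 were called higher under DAPT, 21 were called lower and 3 did not pass the test, so 87.5% were lower against 21.6% of all genes, and the median difference was −0.65. The median level of the list was 8.61 under DAPT, 9.41 under U0126 and 9.26 with vehicle. Ube2c, a ubiquitin-conjugating enzyme of mitotic exit, had signals of 10.75, 10.46 and 10.36 under DAPT, 11.86, 11.74 and 11.65 under U0126 and 11.49, 11.42 and 11.72 with vehicle. The DAPT arrays lay below both other groups (log2 difference −1.23, SE 0.101, adjusted p = 4.73e-08). Aurka, a mitotic kinase, had signals of 8.80, 8.69 and 8.71 under DAPT, 9.54, 9.43 and 9.50 under U0126 and 9.10, 9.28 and 9.21 with vehicle. The DAPT arrays were the lowest (log2 difference −0.75, SE 0.0905, adjusted p = 4.24e-06). Ccnb2, a mitotic cyclin (−1.04, adjusted p = 2.48e-08), Cenpa, the histone of centromeres (−0.96, adjusted p = 3.61e-07), and Cdk1, the kinase that drives mitosis (−0.91, adjusted p = 3.52e-07), were lower as well. In these bulk samples, fewer cells in division and less RNA per dividing cell cannot be told apart.

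Of 24 DNA replication genes tested, 1 was called higher under DAPT, 9 were called lower and 14 did not pass the test (median −0.15; 41.7% called, near the 44.7% of all genes). Rrm2, a subunit of ribonucleotide reductase (−0.77, adjusted p = 4.13e-06), Ccne1, a cyclin of S-phase entry (−0.78, adjusted p = 1.97e-04), and Cdt1, a licensing factor (−0.55, adjusted p = 6.20e-06), were lower under DAPT. Of 19 G1 cyclins, kinases and inhibitors, 3 were called higher under DAPT, 8 were called lower and 8 did not pass the test (15.8% higher and 42.1% lower, against 23.2% and 21.6% of all genes; median −0.11). Cdkn1a, the inhibitor p21, had signals of 11.47, 11.43 and 11.59 under DAPT, 12.43, 12.64 and 12.43 under U0126 and 12.26, 12.32 and 12.28 with vehicle. The DAPT arrays were the lowest (log2 difference −1.0, SE 0.0628, adjusted p = 1.59e-09). Cdkn2a, which encodes p16 and p19ARF, was lower under DAPT (log2 difference −0.34, SE 0.0906, adjusted p = 0.00555), as was Cdkn2b (−0.34, adjusted p = 8.38e-05). Rbl2, a relative of the retinoblastoma protein, was higher (0.59, adjusted p = 2.97e-05). Skp2, a subunit of the ubiquitin ligase that degrades p27, had signals of 9.50, 9.59 and 9.55 under DAPT, 9.80, 9.84 and 9.99 under U0126 and 9.91, 9.86 and 9.83 with vehicle, and DAPT lay lowest (log2 difference −0.33, SE 0.0723, adjusted p = 0.00147). The other bright probe sets of Skp2 differed by −0.36 to 0.13. Cdkn1b, which encodes p27, was called higher by 0.16 (adjusted p = 0.0254), but its adjusted p was 0.0524 and 0.0961 without DAPT replicates 1 and 2, 0.138 without U0126 replicate 2 and 0.403 with median centring.

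Ptpn11, which encodes Shp2, averaged 11.72 ± 0.048 under DAPT and 11.90 ± 0.029 under U0126 (log2 difference −0.18, SE 0.0546, adjusted p = 0.0123); its adjusted p was 0.0562 without DAPT replicate 3, 0.0614 with median centring and 0.17 with the mean of its probe sets, and another bright probe set differed by 0.045. Of 9 genes tested from the readouts tied to Shp2 and senescence, 2 were called higher under DAPT, 6 were called lower and 1 did not pass the test (66.7% lower against 21.6% of all genes, and 22.2% higher, near the 23.2% of all genes; median −0.27). Cdkn1a, Aurka, Cdkn2a and Skp2 were lower and Dll1 was higher, as given above. Of 21 p53 targets tested, 3 were called higher under DAPT, 11 were called lower and 7 did not pass the test (median −0.37; 52.4% lower against 21.6% of all genes). Gadd45a, a growth arrest gene, averaged 7.42 ± 0.22 under DAPT and 8.72 ± 0.13 under U0126 (log2 difference −1.30, SE 0.119, adjusted p = 1.64e-07), Pmaip1, a death-promoting BCL2 relative, differed by −1.21 (adjusted p = 6.41e-08) and the exonuclease Aen by −0.76 (adjusted p = 2.36e-07). The other bright probe sets of Aen differed by −0.76 to 0.025. Sesn1, a regulator of mTOR signalling, stood on the higher side (1.14, adjusted p = 6.80e-04). Of 14 BCL2 family genes, 3 were called higher under DAPT, 4 were called lower and 7 did not pass the test, a share called (50%) near that of all genes; Bid (−0.59, adjusted p = 3.63e-07) and Bik (−0.89, adjusted p = 0.00181), both of which promote cell death, were lower under DAPT. Bmf, which also promotes it, was higher (1.0, adjusted p = 4.74e-05), with an adjusted p of 0.367 for the mean of its probe sets.

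Targets of FOXO factors, which growth factor signalling through AKT keeps out of the nucleus, were more often higher under DAPT: of 18 tested, 10 were called higher under DAPT, 4 were called lower and 4 did not pass the test (median 0.25; 55.6% higher against 23.2% of all genes). Txnip, an arrestin that limits glucose uptake, had signals of 11.38, 11.52 and 11.35 under DAPT, 9.40, 9.47 and 9.46 under U0126 and 10.56, 10.63 and 10.48 with vehicle. DAPT was highest and U0126 lowest (log2 difference 1.97, SE 0.0627, adjusted p = 2.98e-13). Bcl6, a repressor (0.81, adjusted p = 4.23e-06), and Sesn3 (0.67, adjusted p = 5.80e-06) were higher too, and Foxo1 itself was lower (−0.41, adjusted p = 2.32e-05). Hypoxia and glycolysis genes were lower under DAPT: of 21 tested, 1 was called higher under DAPT, 13 were called lower and 7 did not pass the test (median −0.37; 61.9% lower against 21.6% of all genes). Adm, the vasodilator peptide adrenomedullin, had signals of 6.03, 6.14 and 6.70 under DAPT, 9.39, 9.58 and 10.04 under U0126 and 8.95, 8.90 and 8.43 with vehicle. Its DAPT arrays lay lowest and its U0126 arrays highest (log2 difference −3.38, SE 0.305, adjusted p = 1.47e-07), and a second bright probe set differed by −2.44. Hk2, a hexokinase (−1.24, adjusted p = 2.33e-09), and Ero1a, an oxidase of protein folding (−0.81, adjusted p = 4.83e-07), were lower too.

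Of 21 genes of the unfolded protein response and of the integrated stress response, 6 were called higher under DAPT, 7 were called lower and 8 did not pass the test (28.6% and 33.3%, against 23.2% and 21.6% of all genes; median −0.0058). Phgdh, the first enzyme of serine synthesis (−0.93, adjusted p = 3.31e-08), and Ddit3, a stress-induced transcription factor (−0.72, adjusted p = 5.84e-05), were lower under DAPT, while Psat1, the next enzyme of serine synthesis (0.58, adjusted p = 1.58e-07), and the folding helper Dnajb9 (0.69, adjusted p = 4.44e-06) were higher. Of 20 cholesterol and fatty acid synthesis genes, 3 were called higher under DAPT, 6 were called lower and 11 did not pass the test (median −0.10), and 45% were called, near the share of all genes. Srebf1, a regulator of lipid synthesis, was higher under DAPT (0.52, adjusted p = 2.43e-06), and the desaturase Scd1 was lower (−0.46, adjusted p = 1.68e-04).

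Interferon response genes stood lower under both inhibitors than with vehicle in their median level, and some differed between the inhibitors. Of 22 tested, 2 were called higher under DAPT, 6 were called lower and 14 did not pass the test (36.4% called, against 44.7% of all genes; median difference −0.086). However, 4 of them were dim under both DAPT and U0126 and had no measured difference there, and with the filter on those 6 arrays alone 17 were tested, again with 2 called higher and 6 lower. The median level of the list was 7.21 under DAPT, 7.43 under U0126 and 10.69 with vehicle, and the same vehicle arrays stand beside both. These medians include the 4 members dim under both inhibitors, which passed the filter only through other arrays. All 22 members lay above the median on every vehicle array. Interferons act on target genes through the interferon-stimulated response element, searched here on either strand as a GAAA block followed, after any 2 bases, by another. The promoters of Ifit1 (chr19:34640639-34640888, plus strand) and Rsad2 (chr12:26456453-26456702, minus strand) are shown as those of the members that differed most, with the element in capitals (RefSeq, GRCm38.p6).
Ifit1: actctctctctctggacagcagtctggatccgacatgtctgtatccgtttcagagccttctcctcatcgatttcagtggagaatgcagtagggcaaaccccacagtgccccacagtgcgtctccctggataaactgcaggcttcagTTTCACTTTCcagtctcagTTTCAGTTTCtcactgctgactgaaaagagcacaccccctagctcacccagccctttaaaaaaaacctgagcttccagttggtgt
Rsad2: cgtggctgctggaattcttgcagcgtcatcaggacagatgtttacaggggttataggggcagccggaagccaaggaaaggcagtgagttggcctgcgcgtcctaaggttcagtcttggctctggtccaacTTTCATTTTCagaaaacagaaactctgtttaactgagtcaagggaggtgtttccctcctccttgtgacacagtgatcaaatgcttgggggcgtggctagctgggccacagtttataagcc
The element was in 10 of 16 promoters of tested interferon genes that the table lists, against 3.49% of all promoters.

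Rsad2, an antiviral enzyme, had signals of 7.28, 7.40 and 7.17 under DAPT, 8.51, 9.34 and 9.40 under U0126 and 12.59, 12.83 and 12.41 with vehicle. Both treated groups lay below vehicle, and DAPT was lower than U0126 without overlap (log2 difference −1.80, SE 0.205, adjusted p = 2.27e-06). Ifit1, which binds viral RNA, had signals of 5.99, 6.36 and 6.08 under DAPT, 6.56, 7.81 and 7.82 under U0126 and 11.73, 11.98 and 11.52 with vehicle (log2 difference −1.25, SE 0.287, adjusted p = 0.00196), in the same order. Bst2, which tethers virus particles, averaged 9.39 ± 0.12 under DAPT and 10.35 ± 0.048 under U0126 (log2 difference −0.97, SE 0.102, adjusted p = 9.46e-07). Rtp4, an interferon-induced chaperone, was higher under DAPT than under U0126 (0.55, adjusted p = 6.75e-04), and Irf9 was too (0.31, adjusted p = 0.00225), with an adjusted p of 0.0839 for Irf9 under median centring. Of 13 genes that process and present antigen with MHC class I, 5 were called higher under DAPT, 4 were called lower and 4 did not pass the test (38.5% and 30.8%, against 23.2% and 21.6% of all genes); the median was 0.032, or −0.066 when the member dim under both treatments is left out. The immunoproteasome subunit Psmb10 had signals of 8.94, 8.93 and 8.95 under DAPT, 8.19, 8.16 and 7.80 under U0126 and 10.50, 10.65 and 10.48 with vehicle. U0126 was the lowest group (log2 difference 0.88, SE 0.0999, adjusted p = 2.00e-06), and the peptide trimmer Erap1 was higher under DAPT too (0.68, adjusted p = 2.58e-04).

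**Figure D5:**
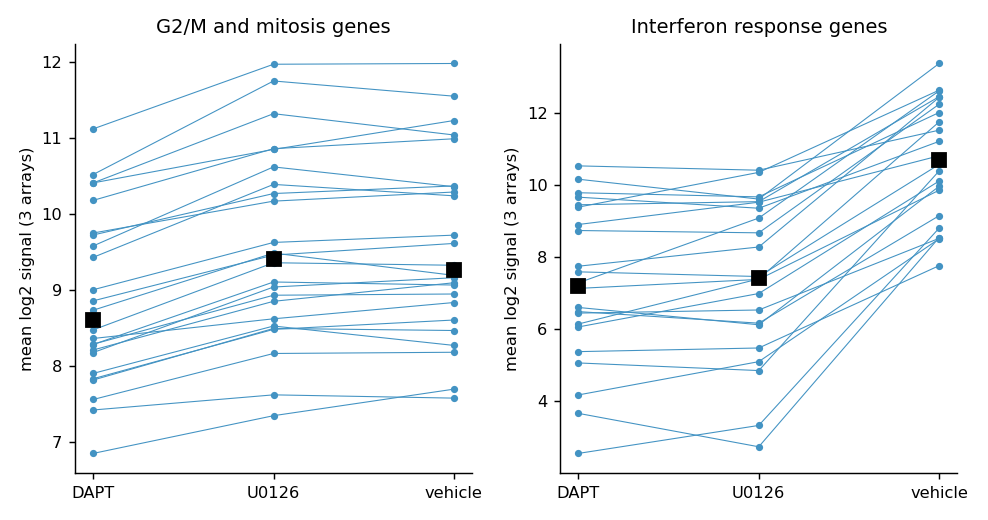
Mean log2 signal (3 arrays) of each tested G2/M and mitosis gene (left) and interferon response gene (right) under DAPT, under U0126 and with vehicle; each line is a gene and black squares are list medians. The G2/M median is 8.61 under DAPT, below 9.41 under U0126 and 9.26 with vehicle, whereas the interferon median is 7.21 and 7.43 under the inhibitors against 10.69 with vehicle. The interferon medians include 4 members dim under both inhibitors, which passed the filter through other arrays.

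Chemokines and cytokines stood on both sides: of 18 tested, 5 were called higher under DAPT, 6 were called lower and 7 did not pass the test (27.8% and 33.3%, against 23.2% and 21.6% of all genes), with a median of 0.13, or 0.0099 with dim members at their bound or left out. Of these, 3 were dim in both groups, and with the filter on the 6 arrays alone 14 were tested, with 5 called higher and 6 lower. Csf3, the growth factor of granulocytes, had signals of 6.04, 5.08 and 6.58 under DAPT, 8.60, 8.49 and 8.35 under U0126 and 7.37, 7.79 and 7.59 with vehicle. Its U0126 signals were the highest (log2 difference −2.58, SE 0.279, adjusted p = 1.24e-06). Ccl20, which attracts lymphocytes and dendritic cells, averaged 7.74 ± 0.26 under DAPT and 9.94 ± 0.22 under U0126 (log2 difference −2.19, SE 0.126, adjusted p = 5.75e-10). Il33, an alarmin of epithelia, was dim under U0126 and at least 5.72-fold higher under DAPT (adjusted p = 3.59e-06). The chemokine Ccl9 had signals of 12.12, 11.98 and 12.08 under DAPT, 10.38, 10.46 and 10.40 under U0126 and 9.66, 9.90 and 9.59 with vehicle. The DAPT arrays were the highest and the vehicle arrays the lowest (log2 difference 1.64, SE 0.0904, adjusted p = 3.08e-10), and Ccl6 was higher under DAPT as well (1.53, adjusted p = 1.24e-06).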

How the data were processed

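Per the labels' protocols, total RNA was extracted with Trizol, purified on RNeasy columns, and 250 ng was labelled as biotinylated cRNA with a 3′ IVT kit. The samples were hybridised to Affymetrix Mouse430_2 arrays. The authors deposited linear signal intensities, made with Affymetrix Expression Console and MAS5 per the submitters' processing notes, which give no versions. From the values, each array's mean after trimming 2% at each end was 500. Scaling to a common mean can hide a general shift.

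Of 45101 probe sets, 64 were controls, 34945 named 1 gene, 932 several and 9160 none; 34741 of the named ones were matched to RefSeq by Entrez ID and 204 kept the platform's symbol. For each of 18193 genes, the probe set of highest mean log2 intensity over the 15 arrays, computed from the deposited signals, was used, an _x_at probe set only where there was no other (41 genes tested). Genes above the array median on at least 3 arrays were tested, 11412 in all. No pseudocount was added and no further normalization was made.

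Limma 3.58.1 (R 4.3.3) fitted 1 coefficient for each of 5 groups and moderated variances along intensity; 10 degrees of freedom were residual and 6.40 prior. Two-sided p-values were adjusted by Benjamini and Hochberg over all genes tested and called below 0.05; all adjusted p-values in the text are limma's. The fit was also run on simulated arrays with independent noise, in which far fewer genes were changed than were called here. That run does not show how the fit behaves when so many genes differ. The number of arrays limits the precision. At most 1 probe set had equal signals on a DAPT and a U0126 array, or on 2 arrays of either group, so no array repeats another. Same-numbered DAPT and U0126 arrays deviated from their group means with correlations of 0.148, 0.154 and 0.0112. For differently numbered arrays the correlations were −0.167 to 0.0238. The main fit did not take the numbers as pairs, and a fit with the replicate number as a block is given below. Sample numbers run group by group and the labels give no processing order, so any effect of that order cannot be told apart from treatment.

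For a gene dim in 1 group, the lower bound takes each dim array at its median, or at the gene's own signal where that is higher. Genes were named by rule: the 12 largest differences in each direction that passed the test without overlap of the groups and with a bright upper group, up to 4 called members of each list in each direction, and 36 fixed genes, some of which are not reported here. Lists, members and tests were chosen with earlier results of these data known. Lists are described by counts and medians, with no test. Promoter motifs were searched from 250 bases before to 50 after the first listed start of each gene. The RBPJ motif TGGGAA was in 0 of 8 listed promoters of tested Notch targets, against 25.5% of all promoters. Its longer form GTGGGAA was in 0 of 8, against 6.39%. Promoters of Hes1 and Hey1 were not listed. The AP-1 motif TGANTCA was in 1 of 14 promoters of ERK outputs and 0 of 17 of immediate early genes, against 7.93%. Alternatives changed the scaling, pseudocount, filter, probe set rule, variance model, replicate block and the arrays included.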

Additional observations from a re-analysis of the deposited data

How the results depend on the processing

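The counts of genes called stayed within 1.5 times under every alternative run, except that median centring called 1600 genes higher (42.1% of its calls, against 51.8% as deposited) and a pseudocount of 80.7, the mean of the array medians, left 161 genes at least 2-fold higher and 185 at least 2-fold lower. With 1 array left out, 4384 to 4829 genes were called, 2243 to 2480 higher and 2117 to 2349 lower, and 285 to 317 were at least 2-fold higher and 322 to 337 at least 2-fold lower. With the replicate number as a block, 2568 were higher and 2383 lower. Of 3656 values of named genes under alternatives, 3485 kept their side of the threshold, and those called kept their direction. Another 163 lost the call and 1 gained it. Values called in neither fit count among the 3485 even where their sign changed, as for Wap without U0126 replicate 3 (−0.081). The other 7 changed sign with a call in the main fit or the alternative, and the cause was not tested: Cd24a (0.022, quantile normalization) and, with the mean of all probe sets, Araf (0.059), Cdk2 (−0.00405), H2-K1 (0.11), Msmo1 (0.40), Tap1 (0.0012) and Tgfbr2 (−0.27). Among the list medians that changed sign was that of SOX factors (−0.039 with no filter and −0.089 with the mean of probe sets). Macrophage markers (−0.014, no filter) and cholesterol genes (0.011, mean of probe sets) did so too. The median of TGF-β and BMP genes was 0.00046 without U0126 replicate 1, and −0.099 to 0.00046 over the arrays left out. Larger reversals came with no filter, for chemokines and cytokines (−0.40) and epithelial-mesenchymal transition genes (−0.21). Stem and tumour-initiating markers reversed there as well (−0.063). MHC class I genes reversed with the filter on the 6 arrays (−0.066). The stress response list with Ddit3 and Dnajb9 reversed with the mean of probe sets (0.17). Further lists changed sign and are not named here. Detection calls were not used and the fits did not weight dim signals down, so signals near an array's median should be read with caution. Differences of dim genes are given as bounds.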

Other observations

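Growth factor and fate genes outside the pathways above also differed between DAPT and U0126. Of 17 TGF-β and BMP genes tested, 6 were called higher under DAPT, 5 were called lower and 6 did not pass the test (35.3% and 29.4%, against 23.2% and 21.6% of all genes; median −0.061). The activin antagonist Fst averaged 9.25 ± 0.2 under DAPT and 11.69 ± 0.051 under U0126 (log2 difference −2.44, SE 0.116, adjusted p = 5.25e-11). Id4, an inhibitor of helix-loop-helix factors found in basal mammary cells, had signals of 8.04, 8.35 and 8.20 under DAPT, 5.82, 6.27 and 6.22 under U0126 and 7.35, 7.48 and 7.63 with vehicle. The DAPT arrays were the highest (log2 difference 2.09, SE 0.17, adjusted p = 4.05e-08). Of 12 ERBB receptors and ligands, 3 were called higher under DAPT, 4 were called lower and 5 did not pass the test (25% and 33.3%, where 23.2% and 21.6% of all genes were; median 0.10). The ligands Ereg (−1.47, adjusted p = 3.83e-07) and Tgfa (−1.04, adjusted p = 1.17e-06) were lower under DAPT, while the feedback inhibitors of EGF receptors Errfi1 (1.02, adjusted p = 2.57e-09) and Lrig1 (0.81, adjusted p = 1.54e-07) were higher. Of 14 WNT pathway genes, 4 were called higher under DAPT, 2 were called lower and 8 did not pass the test (median 0.27; 42.9% called, near the 44.7% of all genes). The secreted WNT antagonist Sfrp1 had signals of 10.92, 10.90 and 11.20 under DAPT, 9.73, 9.64 and 9.75 under U0126 and 10.33, 10.33 and 10.20 with vehicle, highest under DAPT (log2 difference 1.30, SE 0.0753, adjusted p = 6.22e-10), and the ligand Wnt5b was lower (−1.02, adjusted p = 2.02e-06).

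Of 11 IGF signalling genes, 5 were called higher under DAPT, 3 were called lower and 3 did not pass the test (45.5% and 27.3%, where 23.2% and 21.6% of all genes were; median 0.27). Igfbp5 was higher under DAPT (0.51, adjusted p = 1.12e-04) and Irs1, an adaptor of the IGF receptor, was lower (−0.53, adjusted p = 5.88e-04). Of 9 SOX factors, 2 were called higher under DAPT, 3 were called lower and 4 did not pass the test (22.2% and 33.3%, where 23.2% and 21.6% of all genes were; median 0.07). Beside Sox11, Sox21 was lower (−1.01, adjusted p = 2.02e-04) and Sox5 was higher (1.0, adjusted p = 7.87e-04). Of 15 mammary stem and tumour-initiating markers, 6 were called higher under DAPT, 5 were called lower and 4 did not pass the test (40% and 33.3%, where 23.2% and 21.6% of all genes were; median 0.013). Cd14 had signals of 13.12, 13.08 and 13.08 under DAPT, 10.99, 10.90 and 11.02 under U0126 and 13.44, 13.43 and 13.57 with vehicle, and U0126 was the lowest group (log2 difference 2.12, SE 0.0508, adjusted p = 9.36e-15); Lgr6, a receptor of stem cells in skin, was higher under DAPT (0.95, adjusted p = 1.49e-07) and the protein C receptor Procr was lower (−1.15, adjusted p = 0.0023). Of 12 secreted defence genes, 4 were called higher under DAPT, 3 were called lower and 5 did not pass the test (33.3% and 25%, where 23.2% and 21.6% of all genes were), with a median of 0.051, or −0.027 with dim members at their bound or left out. The defensin Defb1 had signals of 11.73, 11.66 and 11.65 under DAPT, 10.37, 9.91 and 10.43 under U0126 and 9.99, 9.99 and 9.67 with vehicle, highest under DAPT (log2 difference 1.45, SE 0.119, adjusted p = 4.82e-08), and the protease inhibitor Slpi was lower (−0.83, adjusted p = 2.24e-06). Among 2759 probe sets with no listed gene that passed the same filter, 717 (26%) were called, with 83 at least 2-fold higher under DAPT and 50 at least 2-fold lower. Among 587 that name several genes, 268 (45.7%) were called, and among 21323 that name 1 gene, 38.3% were called.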
